A study of Mus musculus with 18 samples.

Results

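The RNA of 10 genes of telomere maintenance was followed in C3H/10T1/2 cells, a mouse mesenchymal progenitor cell (MPC) line, with and without ATRX. The genes were chosen by name, as the telomerase subunits Tert and Terc, the shelterin genes Terf1, Terf2, Terf2ip, Tinf2, Acd, Pot1a and Pot1b, and the helicase gene Rtel1. All 10 were found by their Entrez identifiers among the 24100 genes listed in each of the 2 count tables. The tables hold 18 libraries: 9 are polyA-selected and 9 are rRNA-depleted, with 3 libraries for each of 3 cell lines in each kind. Atrx WT is an isogenic line that received the Cas9 vector with no sgRNA, and the knockout (KO) lines are the sg5 clone, labelled G7, and the sg6 clone, labelled B10, each made with its own sgRNA against Atrx. All 3 lines are undifferentiated cultures of the same parental line, and no agent or time course separates them. Each KO line is a single clone and WT is likewise a single line, so n = 3 counts libraries of that line. The p-values measure the spread between those libraries, which may be technical. What loss of ATRX does cannot be told apart from other differences between the lines. A trait of the WT line would appear in both comparisons. The 2 comparisons with WT share its libraries, so they are not independent of each other.

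PolyA libraries held 27544833 to 80772108 counts for WT, 161036799 to 235346363 for sg5 and 58918732 to 71896907 for sg6, and the rRNA-depleted libraries held 20135336 to 33187136. Levels are given as CPM, counts scaled to 1000000 per library with TMM factors, as mean ± SD over 3 libraries, and fold changes are log2 differences from edgeR's quasi-likelihood fit. A gene is said to have risen or fallen when its Benjamini-Hochberg adjusted p over the whole table was below 0.05. Atrx, the targeted gene, was at 275.9 to 327.6 CPM in the WT polyA libraries, 113.9 to 138.1 in sg5 and 122.4 to 141.4 in sg6. It fell in each clone: the log2 fold change was -1.24 in sg5 and -1.199 in sg6 in polyA RNA, and -1.39 and -1.31 in rRNA-depleted RNA. Of 10 mesenchymal progenitor markers, 9 had a mean of at least 1 CPM in WT and sg5 and all 10 did in sg6. The lines nevertheless differed in these markers in polyA RNA: 1 rose and 3 fell in sg5, and 5 rose and 2 fell in sg6. Thy1, a surface marker, was at 0.997 ± 0.168 CPM in WT cells, 0.307 ± 0.0619 in sg5 and 133.9 ± 17.99 in sg6. Pdgfra and Twist2 fell in both clones, and Pdgfrb rose in both.

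Telomeres are repeated sequences at chromosome ends that shorten with replication. Telomerase extends them: the reverse transcriptase Tert copies a short template carried by its RNA subunit Terc, which is processed in the nucleus and carries no poly(A) tail in its mature form. Shelterin coats the repeats, with Terf1 and Terf2 bound to the double-stranded part, Pot1a and Pot1b to the single-stranded overhang, and Tinf2, Acd and Terf2ip joining or modifying them. Mice have a pair of Pot1 genes where humans have a single gene. Rtel1 unwinds secondary structures and loops at telomeres. ATRX is a chromatin remodeler that deposits histone H3.3 at telomeres and other repeats, and its loss is frequent in tumours that keep their telomeres without telomerase, by a recombination route called alternative lengthening of telomeres.

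The sequences below are those of the telomerase subunits, the members with the largest differences. The first is the 5′ end of Terc as annotated by RefSeq, bases 1 to 120 of the RNA, at chr3:96414714-96414833 of GRCm38 on the minus strand, read from the GENCODE vM21 transcript and written with T. Its capitals mark bases 2 to 10, the longest stretch in it that matches the C-rich strand of the telomere repeat, and the stretch occurs 1 time in these 120 bases. The second is the 250 bases before the Tert start, at chr13:73626661-73626910 of GRCm38 on the plus strand, from RefSeq. Its capitals mark the matches to GGGCGG, the core of a GC box, read on either strand.
Terc: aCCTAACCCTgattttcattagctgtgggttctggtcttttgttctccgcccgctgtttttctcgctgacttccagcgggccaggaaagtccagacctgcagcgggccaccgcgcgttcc
Tert: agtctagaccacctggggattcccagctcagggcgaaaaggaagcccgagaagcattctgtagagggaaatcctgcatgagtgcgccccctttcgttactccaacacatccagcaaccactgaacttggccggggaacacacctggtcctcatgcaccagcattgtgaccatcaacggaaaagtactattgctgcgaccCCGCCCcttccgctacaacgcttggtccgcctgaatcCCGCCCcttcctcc
The Tert stretch holds 2 matches to GGGCGG, 51 to 46 and 14 to 9 bases before the start, both on the minus strand, and none to CACGTG, the canonical E-box. At least 1 GGGCGG was found in 32.7% of the 32851 RefSeq promoters of this length, 2 or more in 16.7%, and CACGTG in 6.02%. Its GC content was 57.2%, against a median of 52.4% over those promoters.

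In WT cells, Tert was the lowest of the members per kilobase of exon, and Terc was high in only 1 kind of library. In CPM without scaling by length, Terc was below Tert in polyA RNA, at 0.1205 ± 0.0698 against 0.729 ± 0.0588. Per kilobase of exon, the polyA level was 11.9 ± 0.941 CPM for Acd, 9.39 ± 0.315 for Terf2 and 8.33 ± 1.70 for Rtel1. Terf2ip, Terf1, Pot1b, Tinf2 and Pot1a followed, from 4.77 ± 0.262 down to 2.55 ± 0.244 CPM per kilobase. Terf2 and Rtel1 overlapped in their libraries, as did each neighbouring pair in the order from Terf2ip to Pot1a, so the order among those was not resolved. Terc, at 0.285 ± 0.165, and Tert, at 0.127 ± 0.0103 CPM per kilobase, were apart from the rest.

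In rRNA-depleted RNA, Terc headed the order at 172 ± 14.9 CPM per kilobase, followed by Rtel1 at 9.06 ± 0.976. Tinf2, Acd, Pot1a, Terf2ip, Terf2 and Terf1 lay between 4.56 ± 1.01 and 2.74 ± 0.396, each overlapping the next. Pot1b, at 1.41 ± 0.0876, and Tert, at 0.0460 ± 0.0312, were again apart. The tables were counted by different programs and scaled separately, so levels of a gene in the 2 kinds stand side by side and were not tested against each other.

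**Figure D1:**
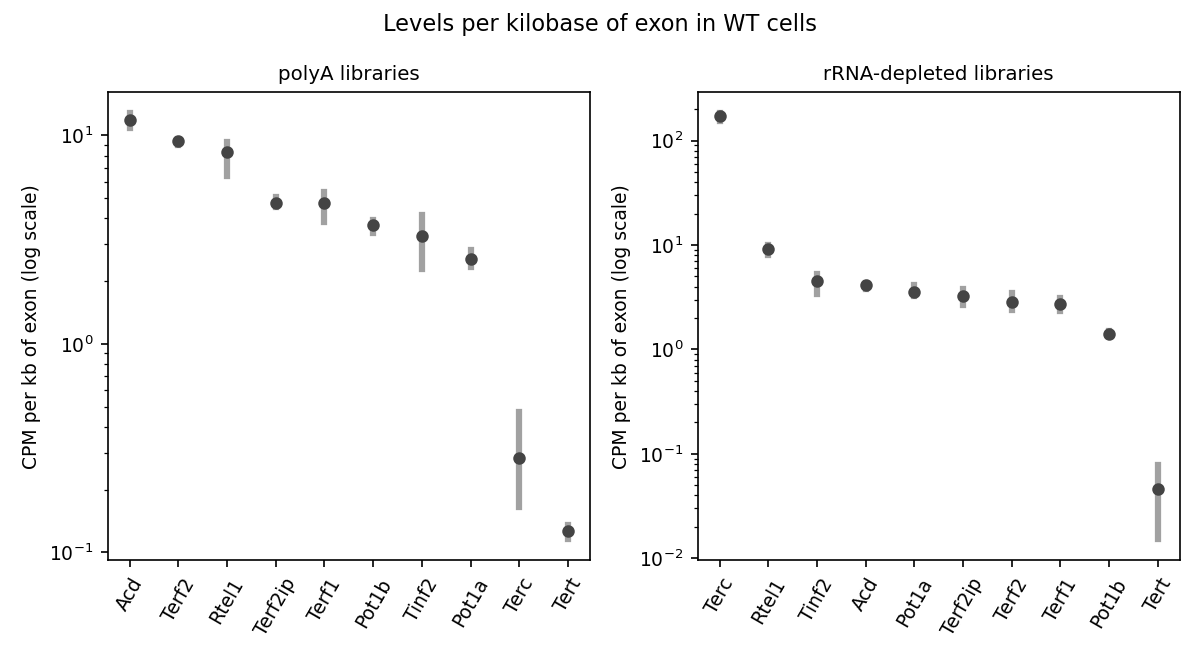
Level of each member in WT cells, in CPM per kilobase of exon on a log scale, in polyA (left) and rRNA-depleted libraries (right). Points are means of 3 libraries and bars run from the lowest to the highest library; Tert is last in both orders and Terc moves from 0.285 to 172.

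Tert, the catalytic subunit of telomerase, nearly disappeared from the polyA libraries of both KO clones. The gene lies at chr13:73626911-73649843 of GRCm38 on the plus strand and overlaps no other annotated gene. The WT libraries held 19, 65 and 35 Tert counts, or 0.664, 0.744 and 0.778 CPM. The sg5 libraries held 0, 0 and 2 counts, and the sg6 libraries held 3, 2 and 0. No KO library reached the lowest WT library, and the highest of them was at 0.0444 CPM.

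Over the 3 libraries of a line, Tert made up 119 of 149928868 counts in WT, 2 of 559604780 in sg5 and 5 of 195563092 in sg6. The share was therefore 222-fold higher in WT than in sg5, with an exact 95% interval of 60.1 to 1855 that covers counting error only. Against sg6 it was 31.04-fold higher, with an interval of 12.9 to 97.4. The sg5 libraries were the deepest of the 9 and held the fewest Tert counts.

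By edgeR's quasi-likelihood test, Tert fell in sg5, with a log2 fold change of -7.22 (SE 0.63, adjusted p = 7.09e-05), and in sg6, with -4.71 (SE 0.60, adjusted p = 0.000475). These fitted values rest on counts near 0 and depend on how the fit treats them, and thinning each library to the depth of the smallest gave -7.37 and -3.77. It was the only member called, as 1 of the 9 that passed the filter on low counts in polyA RNA. Among the 15480 genes tested, 27.0% were called in sg5 and 30.7% in sg6, 13.4% and 14.6% downwards, and 9.7% fell in both clones. Tert passed the filter through its WT libraries alone, the group where it was high, so its call does not weigh as a count over members.

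In rRNA-depleted RNA the Tert counts were 2, 7 and 16 in WT, 0, 4 and 0 in sg5, and 0 in each sg6 library. The gene did not pass the filter there. The sg5 library with 4 counts, at 0.223 CPM, lay above the lowest WT library at 0.0876 CPM, so WT and sg5 overlapped, while sg6 lay below every WT library. Pooled over libraries, the share of counts was 5.55-fold higher in WT than in sg5. The exact 95% interval of 1.92 to 21.9 covers counting error only, not the spread between libraries. Against sg6 it was at least 7.71-fold higher, computed against a floor of 3 counts over the 3 libraries. With the filter removed, edgeR's quasi-likelihood test gave adjusted p-values of 0.733 for sg5 and 0.127 for sg6, so the lower level was not called.

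**Figure D2:**
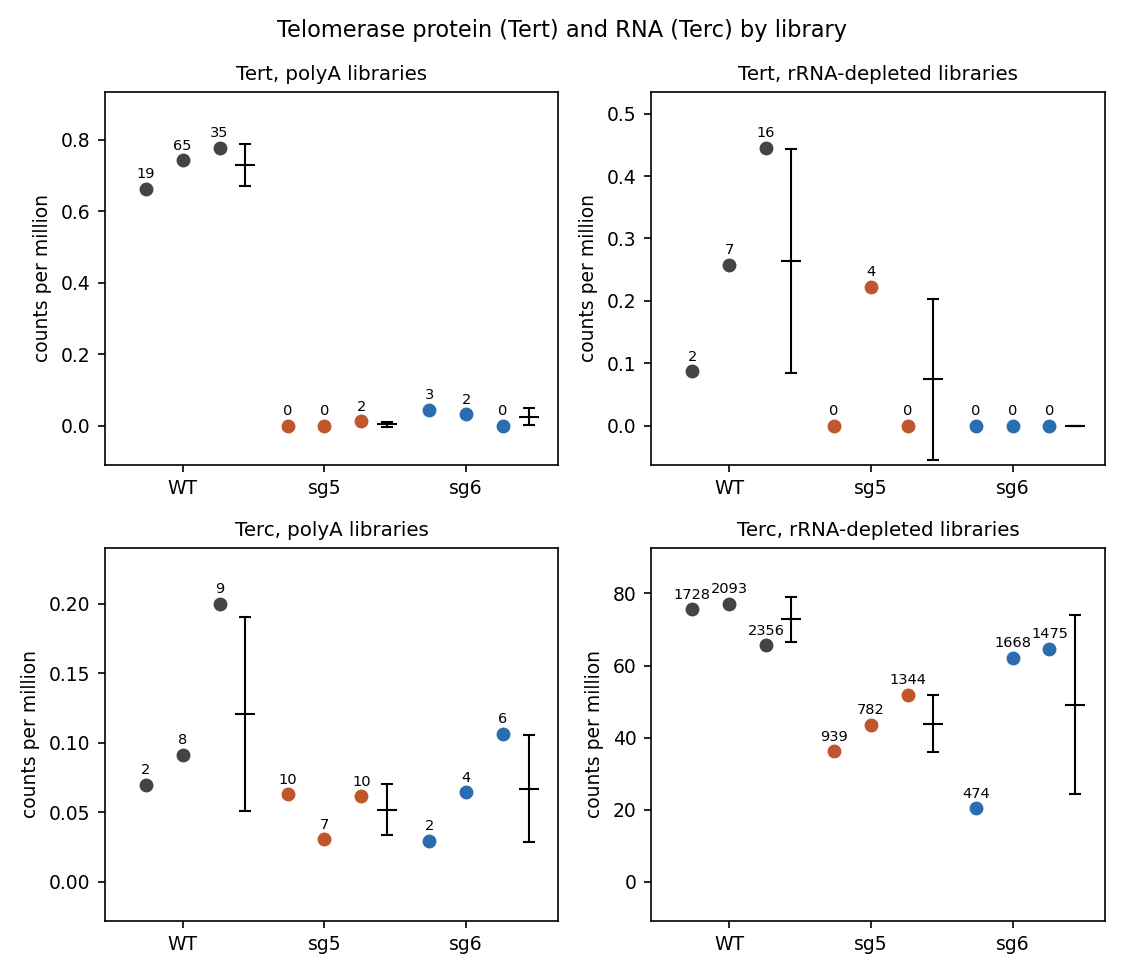
CPM of Tert (top) and Terc (bottom) in each library of WT, sg5 and sg6, with the count of the library above each point and the mean ± SD beside the points. Tert lies between 0.664 and 0.778 CPM in the WT polyA libraries and at or below 0.0444 in the KO libraries, and Terc in rRNA-depleted RNA is lower in each KO library than in any WT library.

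Of 19 genes listed within 500 kb of it, 12 were tested in polyA RNA; these neighbours were looked at after the Tert values were seen. In sg5, 1 fell and 1 rose, and in sg6 none fell and 5 rose, so 2 and 5 of the 12 were called where 27.0% and 30.7% of all genes were. With 12 genes these counts are no result about the neighbourhood. Clptm1l, which ends 6.3 kb before the Tert start, was at 100.6 ± 3.41 CPM in WT cells, 102 ± 6.84 in sg5 and 141 ± 9.42 in sg6, with log2 fold changes of 0.02 and 0.48, the latter a rise (edgeR adjusted p = 0.00187). Slc6a18, which begins 11.9 kb after Tert ends, was at 2.36 ± 0.539, 1.84 ± 0.107 and 1.97 ± 0.0794 CPM and was not called in either clone.

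The neighbour that fell in sg5 was Ndufs6, a subunit gene of mitochondrial complex I, with a log2 fold change of -0.61, while it rose in sg6 at 0.29 (edgeR adjusted p = 0.0459). Nkd2, which encodes an inhibitor of Wnt signalling, rose in both clones, by 2.33 and 3.48. Its level was low, at 0.0953 ± 0.0252 CPM in WT cells, 0.494 ± 0.145 in sg5 and 1.1 ± 0.309 in sg6. The median log2 fold change over tested genes of chromosome 13 was -0.06 in sg5 and 0.24 in sg6, and Tert relative to it was at -7.16 and -4.95. In rRNA-depleted RNA, edgeR called none of the 9 neighbours tested in either clone. Nkd2 was not tested there, with means of 0.0239 CPM in WT cells, 0.16 in sg5 and 0.29 in sg6.

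**Figure D3:**
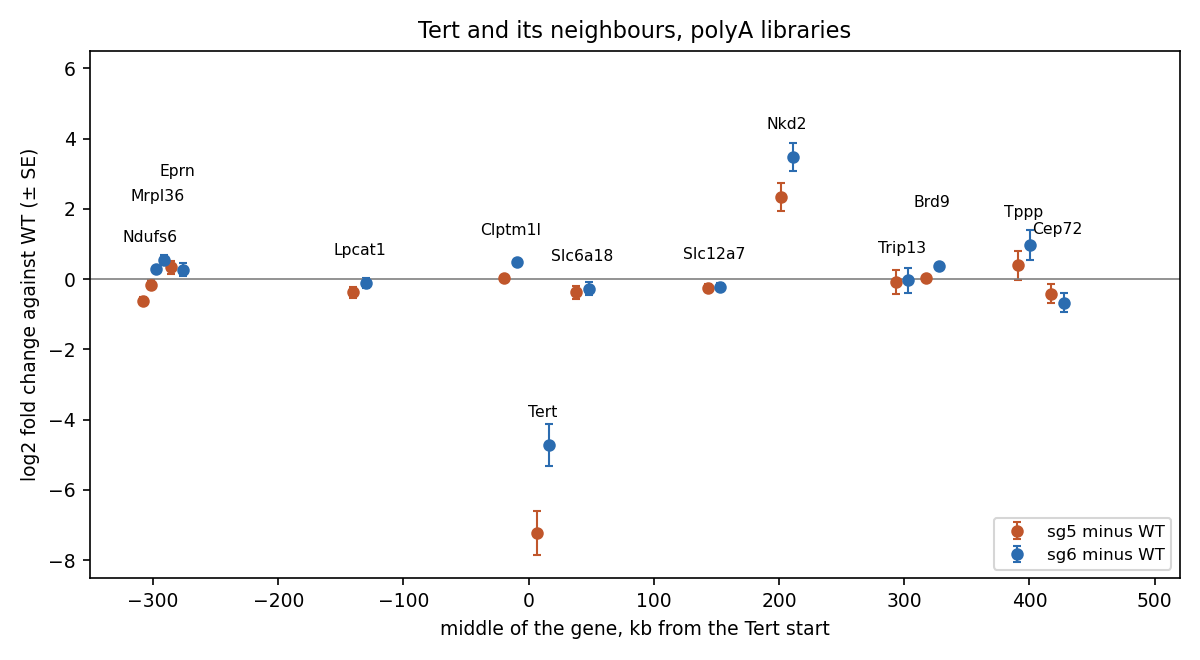
Log2 fold change of Tert and the 12 tested genes within 500 kb, sg5 minus WT and sg6 minus WT in polyA RNA, against the distance of the middle of each gene from the Tert start in kb. Bars are ± 1 SE; Tert stands at -7.22 and -4.71, Nkd2 at 2.33 and 3.48, and the others within 1 of 0.

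Some genes of other lineages moved between the same lines. In polyA RNA the 4 haematopoietic markers summed to 13.55 to 20.75 CPM in WT cells, 6.19 to 7.24 in sg5 and 7.295 to 9.57 in sg6, mainly through Lyz2, while Ptprc had a mean of at most 0.0457 CPM. The 4 epithelial markers summed to 2.76 to 5.03 CPM in WT cells, 0.890 to 1.715 in sg5 and 0.340 to 0.723 in sg6, almost wholly Cdh1, with Krt18 at 0 in every WT and sg6 library and Epcam at 0.0191 CPM or less on average. The 4 endothelial markers moved in different directions: Tek rose in both clones, with 0.962 ± 0.227 CPM for WT against 11.51 ± 2.35 for sg5 and 9.33 ± 1.30 for sg6, Pecam1 fell from 0.340 ± 0.120 to 0.136 ± 0.00815 and 0.152 ± 0.0533, Cdh5 was tested and not called, and Kdr was too low to test. Lyz2 fell from 11.98 ± 3.13 to 2.755 ± 0.268 and 4.12 ± 1.44 CPM, and Cdh1 from 3.86 ± 1.203 to 1.24 ± 0.376 and 0.412 ± 0.148. Whether these genes have a part in the Tert difference was not tested. In bulk RNA, fewer Tert-expressing cells and less Tert RNA per cell cannot be told apart.

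Terc, the RNA subunit, was lower in both clones in rRNA-depleted RNA, but the difference did not pass the test. It is a 423-base gene at chr3:96414437-96414859 of GRCm38 on the minus strand in GENCODE, with no overlapping gene and no 31-base word shared with another transcript. The WT libraries were at 75.7, 77.2 and 65.6 CPM, the sg5 libraries at 36.1, 43.6 and 51.95, and the sg6 libraries at 20.4, 62.2 and 64.6. All 6 KO libraries lay below the lowest WT library. Among the genes tested, 14.9% in sg5 and 14.2% in sg6 lay below WT without overlap.

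The sg6 libraries were uneven, with replicate 1 far below the other two, which lay within 4 CPM of the lowest WT library. The means were 72.8 ± 6.29 CPM in WT cells, 43.9 ± 7.91 in sg5 and 49.1 ± 24.8 in sg6. The log2 fold change was -0.73 in sg5 (SE 0.32, 95% interval -1.41 to -0.05, edgeR adjusted p = 0.257) and -0.57 in sg6 (SE 0.32, interval -1.25 to 0.11, adjusted p = 0.512). Over the alternative settings the adjusted p of sg5 ran from 0.0409 to 0.492. Without replicate 1 of sg6 the sg5 value was -0.70 and passed (adjusted p = 0.0409), and the sg6 value was -0.18 (adjusted p = 0.857).

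Rpph1 and Rmrp, far more abundant noncoding RNAs chosen for comparison after the Terc values were seen, were not lower. Rpph1, the RNA of RNase P, was at 43380 ± 1778 CPM in WT cells, 48820 ± 3199 in sg5 and 47220 ± 3979 in sg6 in rRNA-depleted RNA. Rmrp, the RNA of RNase MRP, was at 23310 ± 2010, 26670 ± 635.8 and 26490 ± 1314 CPM. On the log2 scale both differed from WT by between 0.12 and 0.19, and edgeR called neither. In polyA libraries Terc had 2 to 10 counts a library, 0.0296 to 0.200 CPM, and was not tested.

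The other 8 members, which encode shelterin and Rtel1, were close to their WT levels. In polyA RNA their log2 fold changes ran from -0.22 to 0.21 in sg5 and from -0.17 to 0.18 in sg6. None passed edgeR's quasi-likelihood test (adjusted p from 0.115 to 0.835 in sg5 and from 0.140 to 0.993 in sg6). The 95% intervals together ran from -0.43 to 0.71 in sg5 and from -0.53 to 0.49 in sg6, so a change of 1 log2 unit lay outside each of them. At an unadjusted p below 0.05 there was 1 of these 8 in sg5, Pot1a, and none in sg6, and DESeq2 called none.

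In rRNA-depleted RNA none of the 9 members tested passed in either clone. Of the 56086 genes and transposable element loci tested there, 3.88% passed in sg5 and 2.89% in sg6. Only 13303 of these features were genes, and the share among genes alone is not given here. There, 2 members were at an unadjusted p below 0.05 in sg5, Terc and Terf2ip, and none in sg6, and DESeq2 called none. The intervals were wider than in polyA RNA, and for Terc and Terf2ip in sg5 they reached -1.41 and 0.99. Libraries did not overlap between clone and WT for 5 of the 10 members in sg5 and 1 in sg6 in polyA RNA, and for 4 and 2 in rRNA-depleted RNA. These counts include Terc in sg5 in polyA RNA and Tert in sg6 in rRNA-depleted RNA, which had not passed the filter there. Among tested genes, such a gap was seen for 41.5% and 42.4% in polyA RNA and 36.3% and 31.3% in rRNA-depleted RNA.

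**Figure D4:**
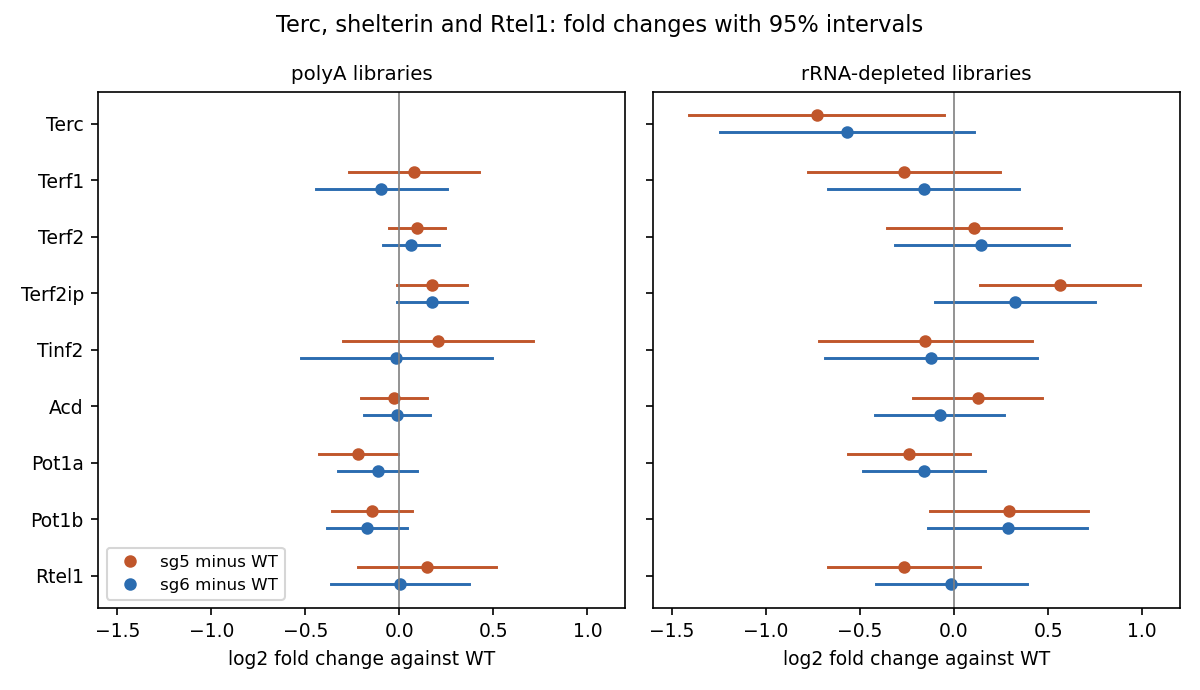
Log2 fold change of the members other than Tert, sg5 minus WT and sg6 minus WT, with 95% intervals, in polyA (left) and rRNA-depleted libraries (right). Terc was not tested in polyA RNA; the polyA values lie between -0.22 and 0.21, and in rRNA-depleted RNA the intervals that leave out 0 are those of Terc and Terf2ip in sg5.

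Terf1 and Terf2 encode the proteins that bind double-stranded telomeric DNA. Positions are those of GRCm38. Terf1, at chr1:15805646-15844052, was at 21.7 ± 3.59 CPM in WT cells, 22.9 ± 3.87 in sg5 and 20.35 ± 1.48 in sg6 in polyA RNA, with overlapping libraries. Terf2, at chr8:107069400-107096547, was at 41.5 to 44.2 CPM in WT cells, 45.4 to 46.9 in sg5 and 43.2 to 46.1 in sg6. Each sg5 library was above each WT library for Terf2, by a log2 fold change of 0.09 (95% interval -0.06 to 0.24) that was not called.

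Terf2ip, which encodes the partner of Terf2, lies at chr8:112011398-112020528, where it overlaps Gm6793 in the annotation. Of its 31-base words, 2.74% occur in other transcripts. Its libraries were at 18.8, 13.3 and 15.98 CPM in WT cells, 27.9, 21.3 and 21.9 in sg5, and 24.8, 18.5 and 16.8 in sg6. All sg5 libraries were above all WT libraries, with a log2 fold change of 0.56 (95% interval 0.14 to 0.99, edgeR adjusted p = 0.152), while sg6 overlapped WT at 0.32. Relative to the median of chromosome 8 in these libraries, 0.37 in sg5 and 0.27 in sg6, the values were 0.195 and 0.06.

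In polyA RNA Terf2ip was at 22.45 to 25.02 CPM in WT cells, 25.96 to 27.88 in sg5 and 25.0 to 28.02 in sg6, with a log2 fold change of 0.17 in sg5 and 0.18 in sg6. Terf2, Terf2ip and Acd lie on chromosome 8, where the median log2 fold change of tested polyA genes was 0.27 in sg5 and 0.28 in sg6. Relative to that median, Terf2ip was at -0.09 and -0.10 and Terf2 at -0.17 and -0.22, so the sign of these small values turned.

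Tinf2 and Acd encode the proteins that link the double-strand and single-strand binders, and Acd also recruits telomerase. Tinf2, at chr14:55674689-55681820, was among the most variable members, at 20.5, 17.1 and 11.3 CPM in the WT polyA libraries, 15.3 to 22.2 in sg5 and 13.03 to 17.9 in sg6. Acd, at chr8:105695860-105701102, was at 43.1 ± 3.41 CPM in WT cells, 42.3 ± 1.715 in sg5 and 42.7 ± 0.359 in sg6. On the log2 scale the differences were -0.03 (95% interval -0.20 to 0.15) and -0.01 (interval -0.19 to 0.16). Tinf2 overlaps Gmpr2 and Acd overlaps Carmil2 in the annotation, and since the strand setting of the counting is not given in the sources used here, reads of such partners may be shared.

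Pot1a and Pot1b encode the proteins that bind the single-stranded overhang. Pot1a, at chr6:25743737-25809246, was at 20.2, 24.4 and 21.75 CPM in WT cells, 17.75, 19.5 and 19.8 in sg5, and 20.6, 20.1 and 20.6 in sg6 in polyA RNA. The sg5 libraries lay just below the lowest WT library, with a log2 fold change of -0.22 (95% interval -0.43 to -0.01, edgeR adjusted p = 0.115). In rRNA-depleted RNA Pot1a was also below WT without overlap in sg5, at 25.7 to 26.6 CPM against 28.1 to 35.9, again uncalled at -0.24.

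Pot1b, at chr17:55651951-55712628, went in different directions in the 2 kinds of library. Its log2 fold changes were -0.14 and -0.17 in polyA RNA and 0.29 and 0.29 in rRNA-depleted RNA, and edgeR called none of the 4. The paralogs share 11 words of 31 bases, so few reads could match both. In all, 3.97% of the Pot1b words occur in other transcripts, and Pot1b overlaps AC154443.2 and Gm22654 in the annotation.

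Rtel1, at chr2:181319739-181356616, had the most polyA counts of the members in each line. Its polyA libraries were at 61.59, 61.58 and 42.1 CPM in WT cells, 53.35 to 69.2 in sg5 and 48.3 to 61.7 in sg6, and the groups overlapped. The WT library at 42.1 CPM, replicate 3, was also the lowest WT library for Terf1 and Tinf2. In that library 12 proliferation genes summed to 1055 CPM, against 2205 and 2435 in the other WT libraries. In rRNA-depleted RNA Rtel1 was at 59.9 ± 6.45 CPM in WT cells, 49.9 ± 9.77 in sg5 and 59.3 ± 11.9 in sg6, with no call.

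**Figure D5:**
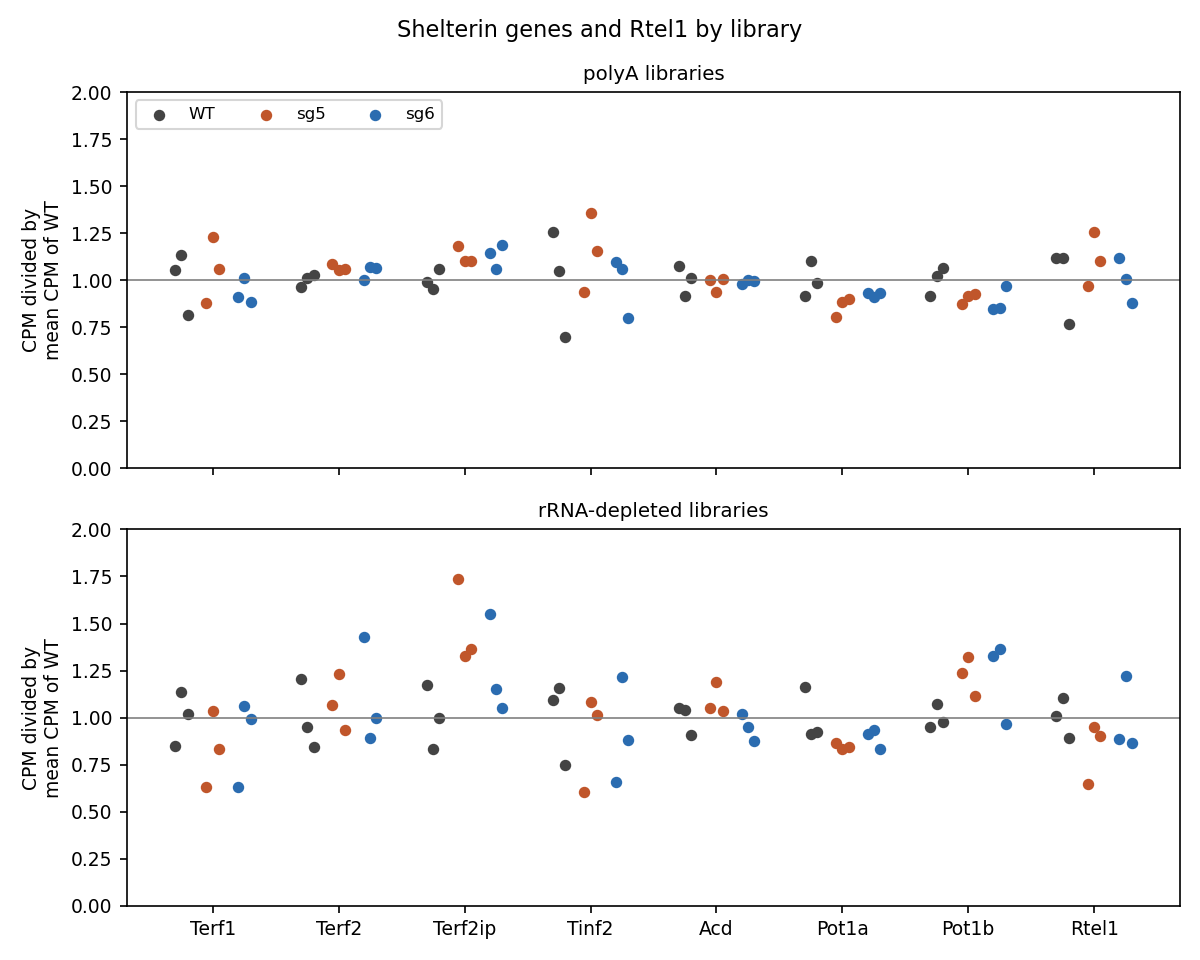
CPM of each shelterin gene and Rtel1 in each library, divided by the mean of its WT libraries (line at 1), in polyA (top) and rRNA-depleted libraries (bottom). The highest point is Terf2ip in sg5 replicate 1 of the rRNA-depleted libraries, at 27.9 CPM against a WT mean of 16.03.

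Compared directly, sg5 and sg6 did not differ in any member by edgeR's quasi-likelihood test, with 0 of 9 called in each kind of library and none by DESeq2. In that comparison 4.79% of the polyA genes and 0.49% of the rRNA-depleted features were called. Tert had the largest polyA difference, at -2.51 (95% interval -4.99 to -0.03, adjusted p = 0.289), and was the only member at an unadjusted p below 0.05, while no member was in rRNA-depleted RNA. With 2 and 5 counts in all, the order of the clones for Tert was not resolved.

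Among genes that make, process or recruit telomerase, or act with shelterin, the share called was close to that of all genes in polyA RNA. In 5 lists of 62 such genes, 60 were tested in polyA RNA, of which 11 rose and 4 fell in sg5 and 6 rose and 8 fell in sg6. That is 25.0% and 23.3% called, against 27.0% and 30.7% of all genes. In rRNA-depleted RNA 4 of 60 were called in sg5 and 1 in sg6, or 6.67% and 1.67%. Of all 56086 features 3.88% and 2.89% were called, but only 13303 of these features were genes. The share among genes alone is not given here, so the lists cannot be set against it. The median log2 fold change of a list in polyA RNA lay between -0.13 and 0.21 in sg5 and between -0.27 and 0.10 in sg6, against -0.002 and -0.006 over all genes tested.

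The list for assembly and trafficking of the telomerase particle had 4 genes that rose and 2 that fell among 12 in sg5, and 1 and 2 in sg6. Coil, the scaffold of Cajal bodies, fell from 19.65 ± 2.05 CPM in WT cells to 13.6 ± 1.41 in sg5 and 13.96 ± 0.873 in sg6 (log2 values -0.54 and -0.50). Shq1, a chaperone of dyskerin, fell from 9.36 ± 0.413 to 7.11 ± 0.503 and 7.18 ± 0.168 CPM, and Nop10, a core protein of the particle, rose from 44.8 ± 4.91 to 54.8 ± 0.341 and 55.7 ± 4.08. These were the genes of the list that changed in the same direction in both clones. In rRNA-depleted RNA, sg5 and sg6 were at -0.65 and -0.31 for Coil, a fall in sg5, at -0.11 and -0.075 for Shq1 and at 0.41 and 0.27 for Nop10, and no other of these was called.

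The list for Terc maturation and decay had 2 of 8 genes higher in sg5, and 1 higher and 1 lower in sg6. Tent4b, whose product adds short adenosine tails that mark Terc precursors for decay, rose from 36.5 ± 2.55 CPM in WT cells to 49.9 ± 1.97 in sg5 and 43.3 ± 2.51 in sg6. The list for the CST complex and the primase that fills in the C-rich strand had 1 of 7 genes lower in each clone. This was Ten1, a CST subunit, which fell from 16.4 ± 2.835 CPM to 8.65 ± 1.11 and 9.85 ± 0.961 (log2 values -0.92 and -0.73). In rRNA-depleted RNA Tent4b was at 0.18 in both clones and Ten1 at -0.83 and -0.65, none of them called. Dcp2, of the list for Terc maturation and decay, rose there in sg5 with a log2 fold change of 0.60. In sg6 Dcp2 was at 0.18, not called.

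The list for end processing and shelterin partners had 3 genes that rose and none that fell among 21 in sg5, and 2 and 2 in sg6. Tnks, which encodes a tankyrase, rose from 101.5 ± 5.12 CPM to 149.6 ± 5.92 and 149.4 ± 15.4 (log2 value 0.56 in both clones). Hmbox1, a protein that binds telomeric repeats directly, rose from 41.7 ± 5.46 to 59.8 ± 4.96 and 54.1 ± 3.40 CPM. In rRNA-depleted RNA, Hmbox1 rose in sg5 with a log2 fold change of 0.76, and was at 0.24 in sg6, while Tnks was at 0.62 and 0.38, not called. Atr, of the same list, fell there in sg5 at -0.60, and was at -0.41 in sg6, not called.

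The list of transcription factors known to act on Tert had 2 genes that rose and 1 that fell among 12 tested in sg5, and 2 and 2 in sg6. Max, the partner of Myc, rose from 51.4 ± 2.76 CPM in WT cells to 74.9 ± 8.46 in sg5 and 94.2 ± 1.875 in sg6. Ets2 fell from 232 ± 42.3 to 123 ± 17.35 and 91.35 ± 22.9 CPM (log2 values -0.91 and -1.34). In rRNA-depleted RNA Ets2 was not called, at -0.07 in sg5 and -0.94 in sg6, and Max was at 0.51 in sg5, not called, and rose in sg6 at 0.77. Among 12 proliferation genes edgeR called none in polyA RNA, where they summed to 1055 to 2435 CPM in WT cells, 1478 to 2351 in sg5 and 992 to 1743 in sg6. In rRNA-depleted RNA 1 of the 12 fell in sg5, Top2a, which encodes a topoisomerase of dividing cells, by 1.07 on the log2 scale.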

How the data were processed

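For polyA libraries the authors ran Rfastp v0.1.2, Salmon (v0.8.1 in the study's methods, 0.8.2 per the labels) on the known genes of mm10, then tximport v1.8.0. The authors deposited expected counts per gene, which are whole numbers. For rRNA-depleted libraries the authors used STAR (2.27.10a per the labels) and TElocal v1.1.1 and deposited read counts for 24100 genes and 3725827 transposable element loci. Neither table is normalized. Salmon and TElocal share out reads that match several places, so values of genes with shared sequence are estimates. Entrez identifiers were paired with symbols through RefSeq, for 24045 of 24100.

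Each table was fitted on its own with edgeR 4.0.16 in R 4.3.3: filterByExpr (minimum count 10, minimum total 15, large n 10, minimum proportion 0.7), TMM, and the quasi-likelihood test over all 9 libraries with 3 groups. Benjamini-Hochberg adjustment ran over the 15480 genes or 56086 features tested, and adjusted p below 0.05 was called. Pooled Tert counts were compared by exact binomial intervals. A count of 0 was read against a floor of 3 counts. Intervals and floors cover counting error only. Scripts were tested on simulated data. No 2 libraries of a line held identical counts, and all differed by more than sampling noise.

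Alternatives were DESeq2 1.42.0, median-of-ratios factors, other filters, a replicate block, thinning, fewer groups, genes alone, each library left out, a log2 threshold of 1 and centring on the chromosome median. The members, the lists and the comparisons were chosen with earlier results of these data known. Named beyond the members and Atrx were at most 4 genes a list, ranked by the smaller change. They had adjusted p below 0.05 in the same direction in both clones in polyA RNA. Also named were neighbours, the noncoding RNAs Rpph1 and Rmrp, markers and genes called in rRNA-depleted RNA, which were chosen after values were seen. Plots used matplotlib 3.10.9 (Python 3.11.15).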

Additional observations from a re-analysis of the deposited data

How the results depend on the processing

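The call of Tert in polyA RNA was kept in both clones under each alternative that tested it: its log2 fold change lay between -7.65 and -7.16 in sg5 and between -4.95 and -3.77 in sg6, and between -9.08 and -6.57 and between -5.36 and -4.21 with each library left out in turn. Requiring at least 10 counts in every library removed Tert, so that 0 members were called in sg5 and 0 in sg6. In rRNA-depleted RNA sg5 gained 1 called member with the replicate block (Terf2ip, adjusted p = 0.0256 by edgeR), 1 with only the groups compared (Terc, adjusted p = 0.04595), and between 0 and 1 with a library left out in turn (Terc, without replicate 1 of sg6). Of 941 log2 fold changes of members under alternatives, 920 kept their side of the threshold, 3 passed it newly, 18 moved by more than the spread on centring on a chromosome median, and no called value turned sign, while 81 uncalled ones did. The cause of these changes was not tested.

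The count over all features moved by over 1.5 times in these cases. In polyA RNA, sg5 against WT gave 2707 without WT replicate 2 (from 4180), and sg5 against sg6 gave 1440 with DESeq2, 1401 with the replicate block and 400 to 473 without replicate 2 or 3 of either clone (from 741). In rRNA-depleted RNA, sg5 against WT gave 3731 with the block and 1067 to 1404 without WT replicate 2 or 3 or sg5 replicate 2 (from 2176). There, sg6 against WT gave 2509 with the block, 837 with at least 10 counts in every library and 785 to 1049 without WT replicate 2 or 3 or sg6 replicate 3 (from 1623). The direct comparison of the clones there gave 148 to 156 with only these groups, without sg6 replicate 3 or with at least 10 counts, and 462 to 639 with DESeq2, the block or no filter (from 275). Replicate numbers are shared between lines, and 8 of 9 same-numbered pairs correlated above 0.1 in each kind (lowest 0.037 and 0.044), so the numbers were not taken to pair the libraries. Mean correlations were 0.389 for same-numbered and -0.185 for different-numbered pairs in polyA RNA, and 0.178 and -0.0881 in rRNA-depleted RNA. The labels do not say whether a number marks a shared batch. With the block Tert was at -7.22 and -4.71, and 7 of 9 polyA and 6 of 9 rRNA-depleted libraries correlated best with their own number. Counts per library were 0 to 16 for Tert in rRNA-depleted RNA and 2 to 10 for Terc in polyA RNA, too few for the test, and why was not tested.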
